A study of Homo sapiens with 10 samples.

Results

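GAS5, SNHG1, SNHG5, SNHG6, SNHG8, SNHG12, SNHG15, SNHG16, ZFAS1 and EPB41L4A-AS1 are 10 non-coding genes that host small nucleolar RNAs (snoRNAs) in their introns and whose spliced RNAs are known targets of nonsense-mediated decay. They were taken by gene name from the 62700 genes of the series, and all 10 passed the filter on low counts, as did 18979 genes in all. Polyadenylated RNA was sequenced from 5 CCAR1 knockout samples and 5 parental samples of RPE p53-/-, a human cell line from retinal pigment epithelium. Both groups lack p53 and grew in the same serum-supplemented medium, and the question posed was what loss of CCAR1, a splicing factor in the series title, does across the genome. The labels give neither the number of knockout clones nor whether replicates were separate cultures, so p-values here rest on sample-to-sample spread that may be no more than technical.

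A snoRNA host gene yields both snoRNAs and a spliced RNA from the same transcript. The introns are trimmed to snoRNAs, which guide ribose methylation (box C/D) or pseudouridylation (box H/ACA) of ribosomal RNA, and the joined exons leave the nucleus. Those exons hold only short reading frames, so a ribosome stops early on them and the decay factors UPF1 and SMG1 mark the RNA for destruction. Cells in which this decay is blocked are known to accumulate the spliced hosts, GAS5 and ZFAS1 among them, and many hosts begin, like ribosomal protein mRNAs, with a run of pyrimidines.

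RefSeq (GRCh38.p14) places 11 snoRNA genes within the span of GAS5, 9 in SNHG1, 4 in SNHG12, 3 each in SNHG16 and ZFAS1, 2 in SNHG5 and 1 in each of SNHG6, SNHG8, SNHG15 and EPB41L4A-AS1. The 3 of SNHG16 (SNORD1A, SNORD1B and SNORD1C) are of the C/D kind, while SNHG12 holds 1 of that kind and 3 of the H/ACA kind. The RefSeq promoter table held 8 of the 10 genes. The start regions of 5 are printed here because they hold the pyrimidine run, and they include both genes that fell in the knockout. Each line runs from 50 bases before the annotated start to 30 bases from it on. Capitals mark TATAA where it lies 45 to 16 bases before the start, and a run of at least 5 pyrimidines counted from a C that lies within 10 bases of the start, leaving out any pyrimidines before that C.
SNHG16: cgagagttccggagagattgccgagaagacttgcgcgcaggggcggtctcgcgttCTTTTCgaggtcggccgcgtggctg
SNHG12: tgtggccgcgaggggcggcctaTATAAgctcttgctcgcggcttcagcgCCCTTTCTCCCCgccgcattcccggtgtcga
SNHG5: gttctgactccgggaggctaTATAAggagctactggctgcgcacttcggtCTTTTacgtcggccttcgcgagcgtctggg
SNHG8: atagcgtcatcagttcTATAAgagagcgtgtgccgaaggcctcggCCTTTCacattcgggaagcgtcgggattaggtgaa
ZFAS1: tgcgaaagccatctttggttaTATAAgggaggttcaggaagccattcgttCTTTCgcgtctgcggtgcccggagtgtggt
These windows are chr17:76557714-76557793 on the plus strand for SNHG16, chr1:28581844-28581923 on the minus strand for SNHG12 and chr6:85678704-85678783 on the minus strand for SNHG5. Those of SNHG8 and ZFAS1 are chr4:118278712-118278791 and chr20:49278592-49278671, both on the plus strand. SNHG5, SNHG8, SNHG12 and ZFAS1 held both marks, which 1.34% of all 35116 promoters in the table held on the coding strand. Alone, TATAA stood in that stretch in 4 of the 8 genes and 4.09% of all promoters (on the other strand in 1 of the 8 and 1.95%), and the pyrimidine run in 5 of the 8 and 33.5%. GAS5, SNHG1 and EPB41L4A-AS1 held neither mark in their windows. The GAS5 window, chr1:173869016-173869095 on the minus strand, lies wholly upstream of the gene's GENCODE release 29 span, which ends at 173868882. The sequence at that GENCODE start was not examined. SNHG12, which fell, shares both marks with SNHG8 and ZFAS1, which did not pass the test.

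Replicates 1 to 3 of each genotype had library totals of 52.6 to 65.2, in units of 1e6 counts, and replicates 4 and 5 had 320.6 to 385; these are called shallow and deep libraries. Markers of skeletal muscle, red cells and liver, 16 genes, summed to 343 to 536 counts per 1e6 (CPM) in shallow knockout and 436 to 680 CPM in shallow parental libraries, against 1.74 and 1.79 CPM in deep knockout and 0.901 and 1.17 CPM in deep parental libraries. Fold changes are therefore also given within each depth; the part these transcripts play in the pooled spread was not tested. The keratins KRT8 and KRT18 were at 118 to 249 CPM and the pigment epithelium factors MITF and OTX2 at 30.9 to 47.1 and 10.06 to 18.3 CPM, whereas RPE65, RLBP1 and TYR stayed at or under 0.189 CPM in every library. CCAR1 was at 92.3, 95.6, 88.5, 125.7 and 125.5 CPM in knockout replicates 1 to 5, against 125.4, 133, 134, 173 and 173 CPM in parental replicates (log2 fold change -0.48, edgeR adjusted p = 0.0201), and gene counts do not show whether the remaining RNA carries the edit.

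Of the decay-sensitive hosts, SNHG16 and SNHG12 fell in CCAR1 knockout cells, 0 of 10 rose and 8 did not pass an adjusted p of 0.05. That is 20% called, where 36.6% of all genes tested were called, 19.7% as higher and 16.9% as lower. At an unadjusted p under 0.05 the count was 0 higher and 3 lower. The share of all genes at that threshold was not counted. DESeq2 gave 0 higher and 3 lower, and it called 7836 of all 18979 genes. The median log2 fold change of the 10 was -0.10, against 0.02 over all genes tested. Adjusted p-values are from edgeR's quasi-likelihood test, over 18979 genes in the main fit. The shallow libraries alone tested 18806 genes and the deep ones alone 26859. Other fits with a library left out or another filter were likewise adjusted over their own genes. Permutation p-values are exact and two-sided over all arrangements of the 10 libraries. In bulk RNA fewer cells carrying a transcript and less of it per cell cannot be told apart.

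**Figure D1:**
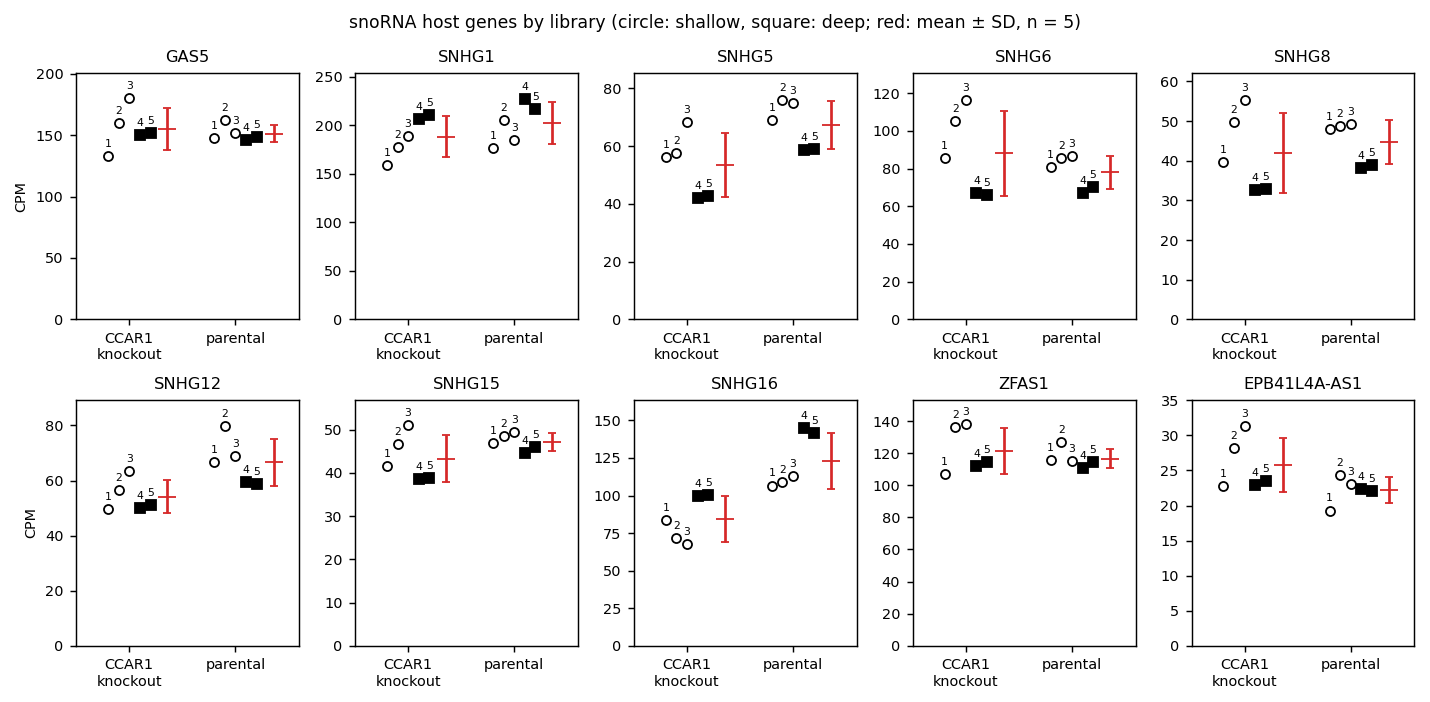
CPM of each of the 10 host genes in every library, with CCAR1 knockout left of parental, replicate numbers beside the points, shallow libraries as open circles, deep ones as filled squares, and the mean ± SD (n = 5) in red. SNHG16 is the gene whose 5 knockout values, at 67.6 to 100.4 CPM, all lie under its 5 parental values, at 107 to 145 CPM.

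SNHG16, host of the SNORD1 group (ENSG00000163597.17, chromosome 17, 76557766 to 76565348, hg38), showed the largest change of the 10. It was at 83.9, 71.6, 67.6, 99.6 and 100.4 CPM in knockout replicates 1 to 5, against 107, 109, 113, 145 and 142 CPM in parental replicates 1 to 5. No knockout library reached any parental one, as for 30.6% of all genes tested, and the deep libraries were the highest of each genotype. The mean was 84.6 ± 15.3 CPM in knockout and 123 ± 18.8 CPM in parental cells (SD, n = 5 each), and the fitted level in the knockout was 68.7% of the parental one. Its log2 fold change came to -0.54 (standard error 0.14, 95% interval -0.85 to -0.23, edgeR adjusted p = 0.0121, exact permutation p = 0.00794, the smallest that can be had). Shallow libraries alone gave -0.57 and deep libraries alone -0.54. Subtracting the median of chromosome 17 ended the call, as given with that of the other chromosomes. Each fit that left out a library kept the call, with log2 fold changes of -0.61 to -0.48.

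SNHG12, which hosts SNORD99 and 3 H/ACA snoRNAs (ENSG00000197989.15, chromosome 1, 28578538 to 28583132), fell by less. It was at 49.6, 56.5, 63.5, 50.2 and 51.1 CPM in knockout replicates, against 66.6, 79.7, 68.8, 59.4 and 58.8 CPM in parental replicates. The pooled ranges overlapped only because knockout replicate 3 stood above the deep parental libraries, and within each depth every knockout library lay below every parental one. The mean was 54.2 ± 5.88 CPM in knockout and 66.7 ± 8.51 CPM in parental cells (SD, n = 5 each), giving a log2 fold change of -0.30 (SE 0.10; edgeR adjusted p = 0.0444, exact permutation p = 0.0317). This call was lost without any one of knockout replicates 1, 2, 4 and 5 or parental replicates 1, 2 and 3, with edgeR adjusted p-values of 0.062 to 0.0961 and log2 fold changes of -0.32 to -0.24. With the replicate number as a block the change was -0.29 (edgeR adjusted p = 0.00121), with -0.35 from shallow and -0.24 from deep libraries.

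SNHG5, host of SNORD50A and SNORD50B on chromosome 6, was lower within each depth but did not pass over all libraries. It was at 56.2, 57.8, 68.5, 42.1 and 42.8 CPM in knockout replicates, against 68.9, 75.8, 74.9, 58.6 and 59.0 CPM in parental replicates. Among shallow libraries the highest knockout value stood just under the lowest parental one, and the deep libraries were further apart. Over all libraries the log2 fold change came to -0.34 (SE 0.15; edgeR adjusted p = 0.0994, exact permutation p = 0.0397). The replicate block gave -0.35 and called it (edgeR adjusted p = 2.48e-04), while shallow libraries gave -0.27 and deep libraries -0.49.

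SNHG15, a short-lived RNA that hosts SNORA9 on chromosome 7, was at 41.7, 46.6, 51.2, 38.5 and 38.7 CPM in knockout replicates, against 47.0, 48.7, 49.6, 44.7 and 46.0 CPM in parental replicates. The knockout values straddled the parental ones among shallow libraries and lay below them among deep ones. A log2 fold change of -0.12 resulted (SE 0.087; edgeR adjusted p = 0.319), and the block moved it past the threshold at -0.13 (edgeR adjusted p = 0.0355). Shallow libraries gave -0.065 (edgeR adjusted p = 0.450), and deep libraries called it lower at -0.25 (edgeR adjusted p = 4.98e-07).

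SNHG5, SNHG15 and SNHG16 lie on chromosomes whose protein-coding genes were lower as a group in the knockout libraries. The median log2 fold change was -0.32 over 730 protein-coding genes of chromosome 6, -0.30 over 651 of chromosome 7 and -0.28 over 845 of chromosome 17. With the chromosome's median subtracted, SNHG5 was at -0.01 (edgeR adjusted p = 0.961) and SNHG15 turned to 0.18 (edgeR adjusted p = 0.157). SNHG16 kept -0.26, which ended its call (edgeR adjusted p = 0.196). With depth as a term beside the subtraction SNHG16 was called lower at -0.26 (edgeR adjusted p = 3.11e-04) and SNHG15 higher at 0.17 (edgeR adjusted p = 0.0120). The same fit called SNHG6 higher at 0.22 (edgeR adjusted p = 0.0296) and SNHG12 lower, which makes 2 higher and 2 lower. It called 11730 of all 18979 genes. SNHG12, on chromosome 1 with a median of 0.05, was at -0.35 after the subtraction (edgeR adjusted p = 0.0242).

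EPB41L4A-AS1, host of SNORA13 on chromosome 5, had the highest fold change of the 10. It was at 22.8, 28.2, 31.3, 23.0 and 23.5 CPM in knockout replicates, against 19.3, 24.4, 23.0, 22.3 and 22.1 CPM in parental replicates. The genotypes overlapped among shallow libraries and were narrowly apart in the deep ones. This gave a log2 fold change of 0.21 (SE 0.11; edgeR adjusted p = 0.154). The block called it higher at 0.20 (edgeR adjusted p = 0.0133), and depth as a term did not (edgeR adjusted p = 0.0631). Shallow libraries gave 0.30 (edgeR adjusted p = 0.0887) and deep libraries 0.047 (edgeR adjusted p = 0.188).

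SNHG6, host of SNORD87 on chromosome 8, was called higher in the shallow libraries and was not called over all libraries by genotype alone. It was at 85.8, 105.1, 116, 66.9 and 66.0 CPM in knockout replicates, against 80.9, 85.3, 86.4, 66.8 and 70.0 CPM in parental replicates. Knockout was above parental in each shallow library but replicate 1, which lay among the parental values, while the deep libraries overlapped. Shallow libraries gave a log2 fold change of 0.27 (edgeR adjusted p = 0.0426), deep libraries -0.06 (edgeR adjusted p = 0.0672) and all libraries 0.18 (SE 0.17; edgeR adjusted p = 0.467). The difference of -0.32 between deep and shallow did not pass its own test (edgeR adjusted p = 0.257).

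GAS5, the growth arrest-specific host with the most snoRNA genes, was at 133, 160.2, 179.9, 149.8 and 151 CPM in knockout replicates, against 148, 162, 152, 146 and 148 CPM in parental replicates. The lowest and the highest of its 10 values were both shallow knockout libraries. GAS5 had a log2 fold change of 0.03 with a 95% interval of -0.14 to 0.21, whose ends are 0.907-fold and 1.16-fold (edgeR adjusted p = 0.796).

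ZFAS1, which starts beside ZNFX1 on the other strand and hosts the SNORD12 group, was at 107, 136, 138, 112 and 114 CPM in knockout replicates, against 116, 127, 115, 110.7 and 115 CPM in parental replicates. Parental values lay inside the knockout range. ZFAS1 had a log2 fold change of 0.06 with a 95% interval of -0.13 to 0.25 (edgeR adjusted p = 0.647), and the deep libraries gave -0.01.

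SNHG1, host of SNORD25 to SNORD31 among others, was at 159, 177, 189, 206 and 210.0 CPM in knockout replicates, against 176, 206, 184, 227 and 217 CPM in parental replicates. Deep libraries were the highest in both genotypes. SNHG1 had a log2 fold change of -0.10 with a 95% interval of -0.32 to 0.12 (edgeR adjusted p = 0.475). The deep libraries alone called it lower at -0.11 (edgeR adjusted p = 0.00187), and the shallow ones gave -0.12 without a call (edgeR adjusted p = 0.194).

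SNHG8, host of SNORA24 on chromosome 4, was at 39.7, 49.7, 55.3, 32.5 and 32.9 CPM in knockout replicates, against 48.0, 48.8, 49.3, 38.2 and 39.0 CPM in parental replicates. Shallow knockout libraries lay on both sides of the shallow parental ones, and deep knockout libraries lay below the deep parental ones. SNHG8 had a log2 fold change of -0.09 with a 95% interval of -0.45 to 0.27 (edgeR adjusted p = 0.731). Shallow libraries gave -0.02 and deep libraries -0.26, and the deep ones called it lower (edgeR adjusted p = 4.08e-07).

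**Figure D2:**
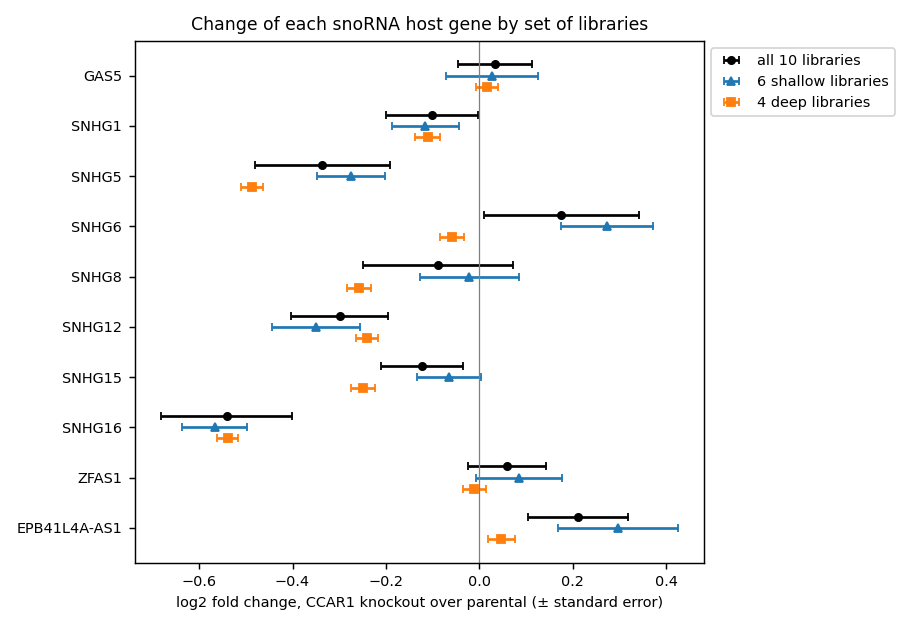
Log2 fold change of CCAR1 knockout over parental for each host gene, ± standard error, from all 10 libraries (circles), the 6 shallow libraries (triangles) and the 4 deep libraries (squares). SNHG16 lies between -0.57 and -0.54 in all of them, while SNHG6 lies at 0.27 for shallow and -0.06 for deep libraries.

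Within a depth, more of the hosts were called. The replicate block gave 1 higher and 4 lower, and it called 61.2% of all genes, 31.1% as higher and 30.1% as lower. Depth as a term gave 0 higher and 4 lower, and it called 64% of all genes. The shallow libraries alone gave 1 higher and 3 lower, where 52.7% of all genes were called, and the deep libraries alone 0 higher and 6 lower, where 57% were. Knockout and parental ranges were apart for 3 of the 10 genes within shallow libraries and 8 of the 10 within deep ones, against 59.6% and 84.9% of all genes. The change in deep libraries differed from that in shallow ones for 0 of the 10 in edgeR's interaction test. That test called 0.601% of all genes (0.316% with the deep change above the shallow one and 0.285% below it). At an unadjusted p under 0.05 it called 1 of the 10, and the share of all genes there was not counted. The fall of SNHG16 and of SNHG12 was called at each depth, with edgeR adjusted p-values in the shallow libraries of 1.28e-05 and 0.0121.

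The knockout libraries of the shallow depth differed among themselves in the hosts. In 9 of the 10 genes, all but SNHG16, replicate 1 was the lowest and replicate 3 the highest of these 3 libraries, an order that 21.6% of all genes tested showed. SNHG16 had the opposite order, as did 23.1% of all genes. Replicate 3 stood above replicate 1 by 1.39-fold for SNHG8, 1.38-fold for EPB41L4A-AS1 and 1.35-fold for both GAS5 and SNHG6, and by 1.19-fold for SNHG1. The SNHG16 value was 1.24-fold higher in replicate 1 than in replicate 3. Deep knockout replicates 4 and 5 differed by at most 1.02-fold. GAS5 spanned 133 to 179.9 CPM over shallow knockout libraries, with the deep pair at 149.8 and 151 CPM, and had an SD of 17.0 CPM in knockout and 6.64 CPM in parental cells (n = 5 each).

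**Figure D3:**
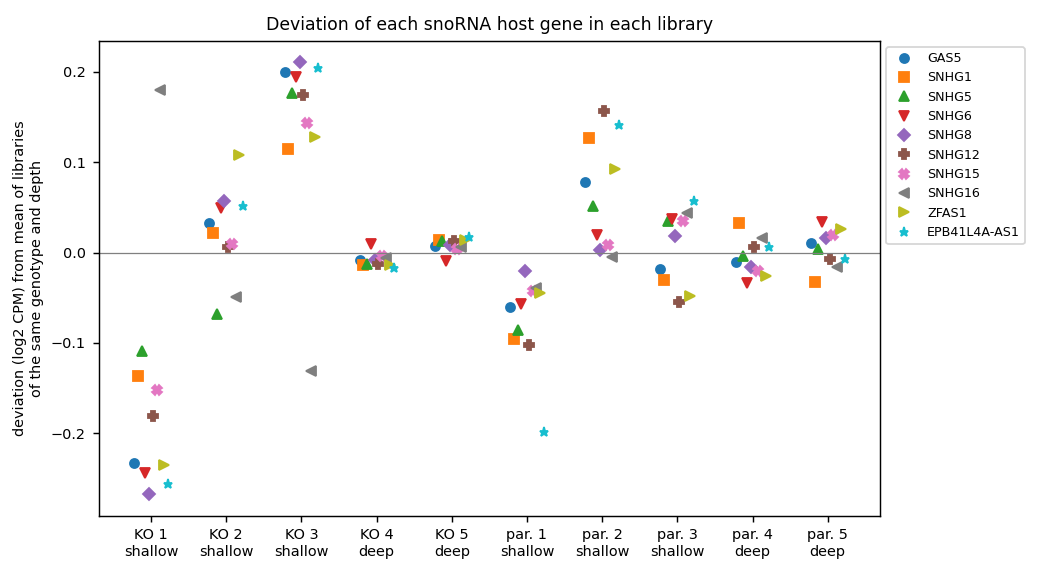
Deviation of each host gene from the mean of the libraries of its genotype and depth, in log2 CPM, for the 10 libraries (KO, CCAR1 knockout; par., parental). In shallow knockout replicate 1 only SNHG16 lies above 0, and in replicate 3 only SNHG16 lies below it.

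Levels of the hosts also differed between shallow and deep libraries of one genotype, which differ in other-tissue transcripts as well as in depth. Each shallow library lay above each deep one for 4 of the 10 genes in knockout and 6 in parental cells, against 38.4% and 35.4% of all genes. The opposite held for 2 genes, SNHG1 and SNHG16, in each genotype, against 37.2% and 37.6%. SNHG16 in deep libraries was 1.34-fold its shallow level in knockout and 1.31-fold in parental cells.

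Genes that overlap the hosts on the other strand did not always move with them. Overlaps and distances here use GENCODE release 29 spans. Their starts for ZFAS1 (49278178), SNHG12 (28583132) and SNHG8 (118278709) lie outside the RefSeq windows printed above. These starts thus differ from the ones used there. The sources used here do not say whether reads were counted by strand, so reads of overlapping genes cannot be told apart with certainty. TRNAU1AP, a factor of selenocysteine incorporation whose span overlaps SNHG12, rose while SNHG12 fell. It was at 25.3, 28.1, 29.4, 23.7 and 23.6 CPM in knockout replicates, against 18.4, 17.1, 17.4, 16.6 and 16.5 CPM in parental replicates, so the genotypes did not overlap (log2 fold change 0.60, SE 0.078, edgeR adjusted p = 1.78e-04). ZNFX1, a helicase that responds to viral RNA and whose start lies 248 bases from that of ZFAS1, rose as well. It was at 76.4, 66.3, 64.5, 89.6 and 92.6 CPM in knockout replicates, against 51.5, 50.5, 47.8, 57.2 and 56.5 CPM in parental replicates (log2 fold change 0.56, SE 0.11, edgeR adjusted p = 0.00288).

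The other neighbours given here did not pass. SLC3A2, the heavy chain of amino acid transporters, starts 188 bases from SNHG1 on the other strand and was at 233 ± 37.4 CPM in knockout and 216 ± 21.0 CPM in parental cells (edgeR adjusted p = 0.539). ZBTB37, which starts 800 bases from GAS5, was at 6.56 ± 2.77 CPM in knockout and 5.75 ± 1.26 CPM in parental cells (edgeR adjusted p = 0.648; SD, n = 5 each). GAS5-AS1, EPB41L4A and AC015802.6, which overlap GAS5, EPB41L4A-AS1 and SNHG16, averaged 0.208, 0.269 and 0.266 CPM in knockout cells, against 0.232, 0.184 and 0.213 CPM in parental cells. Their edgeR adjusted p-values were 0.0985 or more. MCMDC2 and AC015802.4, beside SNHG6 and SNHG16, did not pass the filter on low counts.

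**Figure D4:**
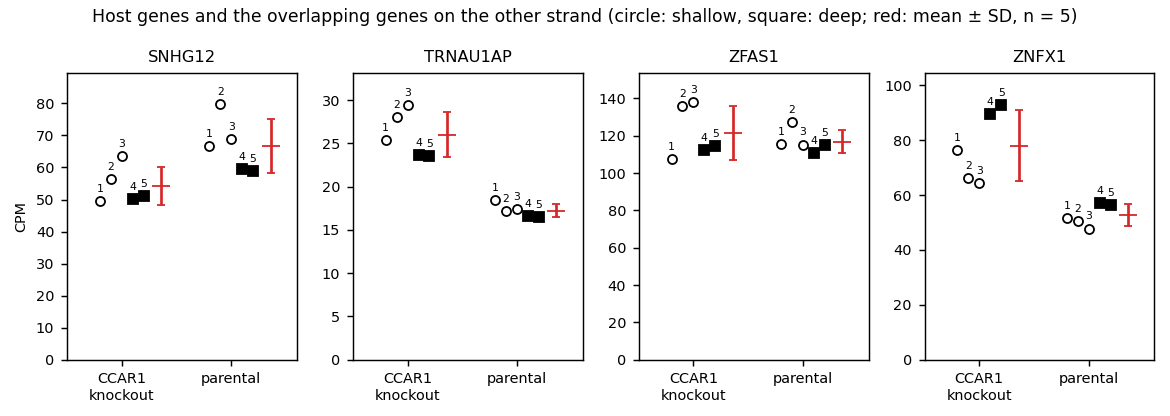
CPM by library of SNHG12 and ZFAS1 and of TRNAU1AP and ZNFX1, which overlap them on the other strand by GENCODE release 29 spans. CCAR1 knockout is left of parental, with shallow libraries as circles, deep ones as squares and the mean ± SD (n = 5) in red. TRNAU1AP lies at 23.6 to 29.4 CPM in knockout and 16.5 to 18.4 CPM in parental libraries, while ZFAS1 overlaps between genotypes.

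Of 17 other snoRNA hosts, non-coding but for SNHG32, which GENCODE release 29 lists as protein-coding and RefSeq as a long non-coding RNA, 5 rose, 1 fell and 11 did not pass, which is 35.3% called, with a median log2 fold change of 0.34. With library size only 6 rose and 0 fell, where 6876 of all 18979 genes were called. With the replicate block 8 rose and 4 fell. SNHG18 on chromosome 5 rose to 26.3 ± 2.71 CPM in knockout, against 14.1 ± 0.688 CPM in parental cells (edgeR adjusted p = 1.09e-05). SNHG14, the long host of the imprinted snoRNA arrays on chromosome 15, averaged 42.1 ± 6.43 CPM in knockout and 21.5 ± 3.03 CPM in parental cells (edgeR adjusted p = 1.97e-04). SNHG26 fell to 3.46 ± 0.671 CPM, against 4.59 ± 0.327 CPM (edgeR adjusted p = 0.0337; SD, n = 5 each). It lies on chromosome 7 too, and its log2 fold change of -0.41 became -0.11 with the chromosome median subtracted (edgeR adjusted p = 0.599), where the list had 7 higher and 0 lower. That subtraction called 6350 of all 18979 genes. The other 3 that rose, chosen after their values were seen, were DANCR, SNHG19 and SNHG4, with log2 fold changes of 0.68, 0.94 and 0.55. No test compared these 17 genes with the 10 decay-sensitive hosts as groups, and whether the 17 are also decay targets was not examined.

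Of 39 protein-coding snoRNA hosts, most of them ribosomal protein and translation factor genes, 5 rose, 5 fell and 29 did not pass (25.6% called, median log2 fold change 0.09). DESeq2 size factors gave 2 higher and 7 lower, library size only 8 higher and 4 lower, and the replicate block 19 higher and 12 lower. Of all 18979 genes, DESeq2 size factors called 6998 and library size only 6876. EIF4A2 and EIF4A1, helicases of translation initiation, fell to 164 ± 16.4 and 962 ± 33.6 CPM in knockout, against 286 ± 27.3 and 1418 ± 65.0 CPM in parental cells (SD, n = 5 each; log2 fold changes -0.80 and -0.56). With the chromosome median subtracted EIF4A1, on chromosome 17, was at -0.28 (edgeR adjusted p = 0.00210). EEF1B2, an elongation factor subunit, and NOP58, a core protein of C/D snoRNPs, rose with log2 fold changes of 0.33 and 0.27.

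Among 18 factors of nonsense-mediated decay 1 rose, 6 fell and 11 did not pass (38.9% called, median log2 fold change -0.14). With the replicate block 1 rose and 9 fell. SMG6, the endonuclease of the pathway, fell to 49.6 ± 2.32 CPM in knockout, against 81.2 ± 1.08 CPM in parental cells, and SMG5, an adaptor that binds phosphorylated UPF1, fell to 136 ± 6.23 CPM, against 192 ± 2.58 CPM (SD, n = 5 each; log2 fold changes -0.71 and -0.49). SMG6 lies on chromosome 17 and was at -0.43 with the chromosome median subtracted (edgeR adjusted p = 1.31e-04). DHX34, a helicase that acts with SMG1, rose with a log2 fold change of 0.50, which became 0.33 with the median of chromosome 19 subtracted. After that subtraction for every chromosome the 18 factors had 2 higher and 4 lower, where 6350 of all 18979 genes were called. UPF3A, on chromosome 13 and named after its values were seen, went from -0.49 to -0.08 and lost its call (edgeR adjusted p = 0.295). Of 8 protein-coding genes whose transcripts are known decay targets, 1 fell, TBL2 (12.5% called; log2 fold change -0.30), and 0 rose, also at an unadjusted p under 0.05 and in DESeq2; the replicate block gave 0 higher and 5 lower. TBL2 lies on chromosome 7 and was at -0.0040 with the chromosome median subtracted (edgeR adjusted p = 0.973), where ATF4, named after its values were seen, was the gene called lower (-0.24, edgeR adjusted p = 0.0302).

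Of 19 proteins that build snoRNA particles 2 rose, 6 fell and 11 did not pass (42.1% called, median log2 fold change -0.05). Library size only gave 3 higher and 2 lower, and the replicate block 6 higher and 8 lower. ZNHIT3 and TCOF1, an assembly factor and a nucleolar phosphoprotein, fell with log2 fold changes of -0.56 and -0.32, and NOP58 and the assembly factor ZNHIT6 rose with 0.27 and 0.23. With the chromosome median subtracted ZNHIT3, on chromosome 17, was at -0.28 (edgeR adjusted p = 0.0173) and ZNHIT6 lost its call at 0.18 (edgeR adjusted p = 0.0542).

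**Figure D5:**
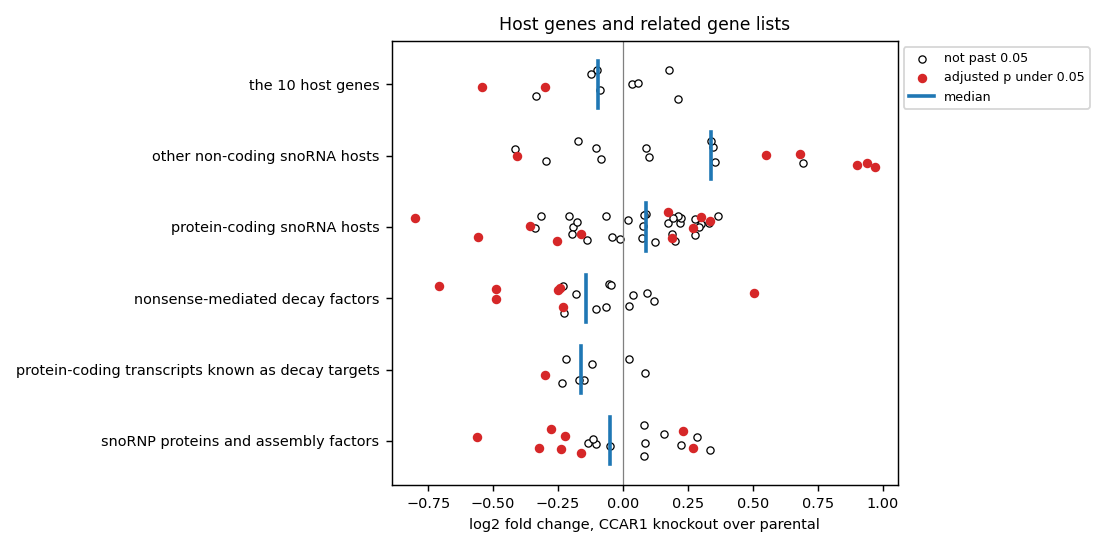
Log2 fold change of CCAR1 knockout over parental for each gene of the 10 hosts and 5 related lists, with genes past an adjusted p of 0.05 in red and the median of each list as a blue bar. The 10 hosts reach from -0.54 to 0.21 with a median of -0.10, and the list of 17 other hosts, labelled non-coding, has a median of 0.34.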

How the data were processed

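The authors deposited an estimated count for every gene in every library, without scaling. Kallisto 0.48.0 and hg38 are named in the submitters' processing notes; the sources used here do not give the annotation release, strand setting or summing over transcripts. Genotype and replicate come from the sample titles.

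Counts were rounded. Low counts were removed with filterByExpr by genotype, and libraries were scaled by TMM. Genotype was tested by edgeR 4.0.16 under R 4.3.3 (quasi-likelihood, robust), and p-values were adjusted by Benjamini-Hochberg across 18979 genes at a threshold of 0.05. CPM is per 1e6 of scaled library size. Kallisto divides shared reads by likelihood. Intervals use the fit's standard error. The fit was tested on simulated counts in which gene levels did not differ between shallow and deep libraries, unlike these data. Of 50 changes of each size it recovered 34% at 1.2-fold, 68% at 1.5-fold and 92% at 2-fold. Gene spans are from GENCODE release 29 on GRCh38 and matched 95.1% of genes tested by ID. Within a genotype and depth no pair of libraries agreed within sampling noise (chi-square per gene 6.99 to 26.7).

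The 10 genes and the 5 lists were chosen with earlier results of these data known. All 10 hosts are named, up to 2 genes each way with the smallest adjusted p from every other list, and genes that overlap a host or start within 5000 bases of it; 1 such gene is not reported here.

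Deviations from the group mean of same-numbered libraries correlated across genes at 0.584 to 0.899. For knockout replicates 1 to 5 the best-matching parental replicates were 3, 3, 1, 5 and 5. The correlations thus follow the split by depth and do not establish a pairing by replicate number. The replicate block is printed where it changes a call. Alternatives were other scalings and filters, DESeq2 1.42.0, the replicate block, depth as a term, each depth alone, each library left out, chromosome medians subtracted and small RNA rows added to their host.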

Additional observations from a re-analysis of the deposited data

How the results depend on the processing

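SNHG16 kept its direction under all 22 alternatives and its call under 21, with log2 fold changes of -0.61 to -0.26, and lost the call with the chromosome median subtracted. SNHG12 kept its direction under 22 and its call under 12. The count of called hosts, 2, became 1 with library size only, without the filter, with 1 CPM in 5 libraries and with the chromosome median subtracted. The replicate block gave 5, depth as a term 4, the shallow libraries 4 and the deep ones 6. Depth as a term with the chromosome median subtracted, chosen after seeing the data, gave 4 (2 higher and 2 lower), and leaving out 1 library 1 to 3, with 3 without knockout replicate 3, where SNHG5 joined at -0.45 (edgeR adjusted p = 0.0304).

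The counts called in the other lists, in the order block, depth as a term, shallow alone, deep alone and the added fit, were 12, 12, 11, 13 and 11 for other non-coding hosts (6), 31, 31, 25, 23 and 24 for coding hosts (10), and 5, 5, 2, 8 and 6 for decay targets (1). For proteins of snoRNA particles (8) the block gave 14, depth as a term 15, the deep libraries 14, the added fit 16, and library size only and the chromosome median 5 each. Decay factors (7) had 10 with the block, 10 with depth as a term, 11 from shallow and 14 from deep libraries. Without the filter 4 coding hosts, 4 decay factors and 2 particle proteins were called. Leaving out 1 library gave 4 to 6 other non-coding hosts, 6 to 8 coding hosts, 6 to 7 decay factors, 1 to 2 decay targets and 5 to 8 particle proteins. Leaving out knockout replicate 1 or parental replicate 4 or 5 gave 6 coding hosts and 5 particle proteins, parental replicate 2 gave 6 coding hosts, and knockout replicate 2 gave 2 decay targets. Of the 18979 genes 6939 were called, against 11619 with the block, 12149 with depth as a term and 11730 in the added fit. Subtracting the chromosome median called 6350 of them, library size only 6876, DESeq2 size factors 6998 and DESeq2's own test 7836. Without the filter 6233 of 45973 genes were called, and with 1 CPM in 5 libraries 5611 of 13655. The deep libraries called 15320 of the 26859 genes tested in them.

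Directions turned for hosts that were not called by genotype alone over all libraries. GAS5 was at -0.017 with the chromosome median subtracted, -0.017 in the added fit and 0.075 to -0.033 when 1 library was left out, the last without knockout replicate 3, and SNHG6 at -0.059 in the deep libraries. SNHG15 was at 0.18 with the chromosome median subtracted and 0.17 in the added fit. ZFAS1 was at -0.011 in the deep libraries, -0.019 with the chromosome median subtracted and -0.022 in the added fit. The cause was not tested. Counts per host and library ran from 1224 to 85893, so the spread between libraries and not counting limits these comparisons.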

Other observations

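The table lists 26 small RNA genes that GENCODE release 29 annotates inside the hosts, of which 22 had no count in any library. They include RF02215, RF02216 and RF02217 in ZFAS1, typed as misc_RNA and not as snoRNA, and list SNORA16A more than once. This set holds 0 genes in GAS5 and 7 in SNHG1, so the GAS5 snoRNAs that RefSeq gives were not looked up. Rows that overlap an annotated exon of the host had no count. The 4 with any count lie in introns of every annotated transcript, as does SNORA13 of EPB41L4A-AS1, which had no count. SNORD99, in an intron of SNHG12, had 1376 counts over the 10 libraries and a log2 fold change of -0.29 (edgeR adjusted p = 0.236). SNORD12C and SNORD12B, in introns of ZFAS1, had 939 and 686 counts and log2 fold changes of 0.17 and -0.04 (edgeR adjusted p = 0.621 and 0.962). Mature snoRNAs carry no poly(A) tail, and these libraries were enriched for poly(A), so the levels say little of the snoRNAs themselves. Adding these rows to their hosts left SNHG16 at -0.54 and SNHG12 at -0.30.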
